A study of Mus musculus with 16 samples.

Results

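The first hour of c-Raf stimulation in mouse embryonic stem cells was covered by 6 of the 16 arrays of a time course, 2 each for the groups labelled 0h, 30m and 1h. These arrays were chosen by their time label alone, with each array's sample taken from the column headings of the deposited value table. All came from E14tg2a cells, a mouse embryonic stem cell line kept here in serum with the cytokine LIF on gelatin, that carry a c-Raf fusion protein which is permanently active as a kinase but needs a tamoxifen ligand to be switched on. The 30m and 1h groups received 250 nM 4-hydroxytamoxifen (4OHT) for 30 minutes and 1 hour, after 24 h in 250 nM PD173074, a small molecule that blocks FGF receptors, and with that inhibitor still present. The 0h group had the same 24 h in PD173074 and no 4OHT, so the inhibitor is shared by all 6 arrays. Cells given DMSO alone, and cells stimulated for 2 h, are quoted for their levels. The promoter that drives the fusion and the number of clones are not given in the sources used here, and nothing says that replicates 1 and 2 were separate cultures, so p-values measure the spread between arrays, which may be technical.

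RAF kinases phosphorylate MEK, MEK phosphorylates ERK, and active ERK enters the nucleus and phosphorylates ternary complex factors of the ETS family. These sit with serum response factor (SRF) on CArG boxes, short A/T-rich elements, and switch on immediate early genes such as Fos and the Egr genes without any need for new protein. Dual specificity phosphatases and Sprouty proteins are switched on later and damp the pathway. In embryonic stem cells FGF signalling through ERK is known for moving cells out of the naive pluripotent state, and FGF receptor inhibitors are used to hold that signal down.

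Immediate early transcription factor genes rose within the hour: Egr1 by 13.7-fold, Fos by 11.7-fold and Egr2 by at least 7.10-fold at 1h against 0h. None of the 3 passed the test when slide was left out of the fit. The Egr2 bound depends on the processing: under another background correction and normalization its fitted change was 0.81 (log2). No gene passed the test at 30m against 0h, where Egr1 and Fos stood 1.93-fold and 1.60-fold higher. Genes of ERK feedback (Spry4, Dusp6, Dusp4), mRNA decay (Zfp36) and the matricellular protein Ccn1 were higher at 1h on both slides, by 1.70-fold to 2.67-fold, and did not pass the test. Lists of naive and core pluripotency genes, of the RAF, MEK and ERK genes themselves and of housekeeping genes had median changes of 0.03 to 0.10 (log2) at 1h. None of their members was called, where 0.0192% of all tested genes were.

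Levels are log2 signals relative to the 75th percentile of the array, so 0 is the signal of a fairly bright probe. Replicate 1 of each group lay on slide 1 and replicate 2 on slide 2, and the fit takes slide out as a replicate block. Standard errors (SE) come from that limma fit over all 16 arrays, and a gene is called at an adjusted p under 0.05 over 15660 tested genes. As a second description, with no p, genes were counted that differed by at least 0.5 (log2) the same way on both slides. Whether the arrays of 2 groups overlap is likewise a description and not a test. With 2 arrays a group, they can lie apart with no change, and the share of all genes without overlap is not given here. The share of probes well above background was 57.4% to 60.0% on slide 1 and 61.5% to 67.2% on slide 2 for these 6 arrays. The scanner files of 0h, 30m and 1h replicate 2 are attached to other samples than the value table names, and the results under the attached identities stand in the closing section. Embryonic stem cell markers were well above background on every one of the 6 arrays (8 of 8 genes, levels 3.90 to 8.53), and of 7 fibroblast markers 4 were, at levels of at most -2.28, with Lum and Postn on none.

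At 30m against 0h, limma called 0 of 15660 genes higher (0%) and 0 lower (0%), with 204 genes at an unadjusted p under 0.05, and the fit without the replicate block also called 0. Leaving out 1 array gave 15 calls without 0h replicate 2, 63 without 30m replicate 2 and 0 without either of the other arrays. By the count over both slides, 43 genes (0.275%) were at least 0.5 higher and 27 (0.172%) at least 0.5 lower. At 1h against 0h, limma called 3 genes higher (0.0192%) and 0 lower (0%), with 822 genes at an unadjusted p under 0.05. By the count over both slides 129 genes (0.824%) were higher and 95 (0.607%) lower at 1h. The 30m and 1h comparisons share the 0h arrays. At 1h against 30m, which leaves those arrays out, limma called Egr1, Fos and Egr2 higher (3 genes, 0.0192%) and none lower (0%), with 727 genes at an unadjusted p under 0.05. The count over both slides was 115 genes higher (0.734%) and 88 lower (0.562%).

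**Figure D1:**
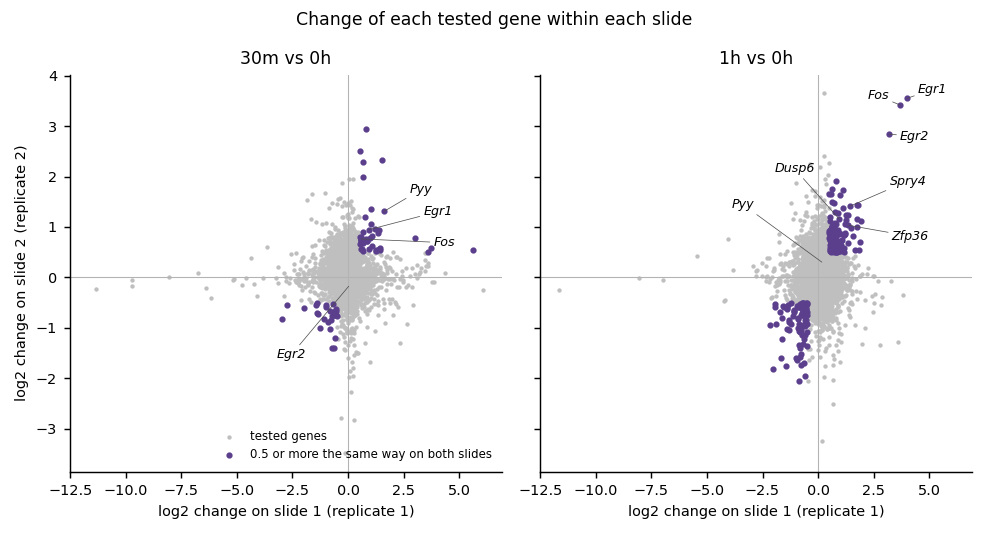
Log2 change of each tested gene within slide 1 (x axis) and slide 2 (y axis), for 30m against 0h (left) and 1h against 0h (right); purple points are genes that differ by 0.5 or more the same way on both slides. Egr1, Fos and Egr2 stand apart at the upper right of the 1h panel at 2.84 to 4.00, while Pyy is among the purple points at 30m and within the cloud at 1h.

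Egr1 encodes a zinc finger transcription factor that is among the fastest ERK-responsive genes. Its level was 1.25 and 0.74 on the 0h arrays, 2.20 and 1.68 at 30m, 5.26 and 4.29 at 1h, and 6.86 and 5.89 at 2h. The levels went up with time on both slides, with no overlap between the 30m and 0h arrays or between the 1h and 30m arrays. The fitted change was 0.95 ± 0.28 (SE) for 30m against 0h, the same 0.95 on each slide, and was not called (limma adjusted p = 1.00). For 1h against 0h it was 3.78 ± 0.28, with 4.00 on slide 1 and 3.55 on slide 2 (limma adjusted p = 0.0037). At 1h against 30m Egr1 rose by 2.83 ± 0.28 (limma adjusted p = 0.031). The DMSO arrays, at 0.52 and 0.46, lay below the 0h arrays.

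Fos encodes the partner of Jun proteins in the AP-1 dimer. The Fos level was -2.62 and -2.86 at 0h, -2.03 and -2.10 at 30m, 1.06 and 0.56 at 1h, and 2.52 and 1.70 at 2h. All 4 groups were apart from each other, with 30m just above 0h and 1h far above both. Fos was 0.68 ± 0.32 higher at 30m than at 0h, which was not called (limma adjusted p = 1.00), and 3.55 ± 0.32 higher at 1h than at 0h (limma adjusted p = 0.0088). At 1h against 30m it rose by 2.88 ± 0.32 (limma adjusted p = 0.036).

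Egr2 encodes the zinc finger factor also called Krox20. Egr2 read -5.30 and -5.68 at 0h and -5.27 and -5.85 at 30m, where no array was well above background, then -2.10 and -2.83 at 1h and -0.06 and -0.82 at 2h. Both 1h arrays were well above background and none of the 4 earlier ones was. Egr2 entered the test on the strength of 1h and later groups, where it is high, so its adjusted p is given as a description. The 1h arrays were at least 7.10-fold above 0h (limma adjusted p = 0.025 for the fitted change) and at least 5.36-fold above 30m (limma adjusted p = 0.031).

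All 3 calls depend on the replicate block. Without it the limma adjusted p for 1h against 0h was 0.40 for Egr1, 0.23 for Fos and 1.00 for Egr2, and no gene was called. Leaving out 1 array also ended them for 1h against 0h: limma called 0 genes without 0h replicate 1, without 1h replicate 1 or without 1h replicate 2, and 23 genes without 0h replicate 2. For 1h against 30m it called 0 genes without 30m replicate 1, 1h replicate 1 or 1h replicate 2, and 65 without 30m replicate 2. The fitted 1h against 0h change of Egr1 stayed between 3.62 and 3.94 over 13 other settings, that of Fos between 2.64 and 3.72, and that of Egr2 between 0.81 and 3.33, with 0.81 under normexp background correction (limma adjusted p = 0.86). Without a filter on dim probes Egr2 had a limma adjusted p of 0.058. With the array identities attached to the scanner files the changes were 1.14 ± 2.70 for Egr1, 0.71 ± 2.34 for Fos and 1.14 ± 2.60 for Egr2.

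**Figure D2:**
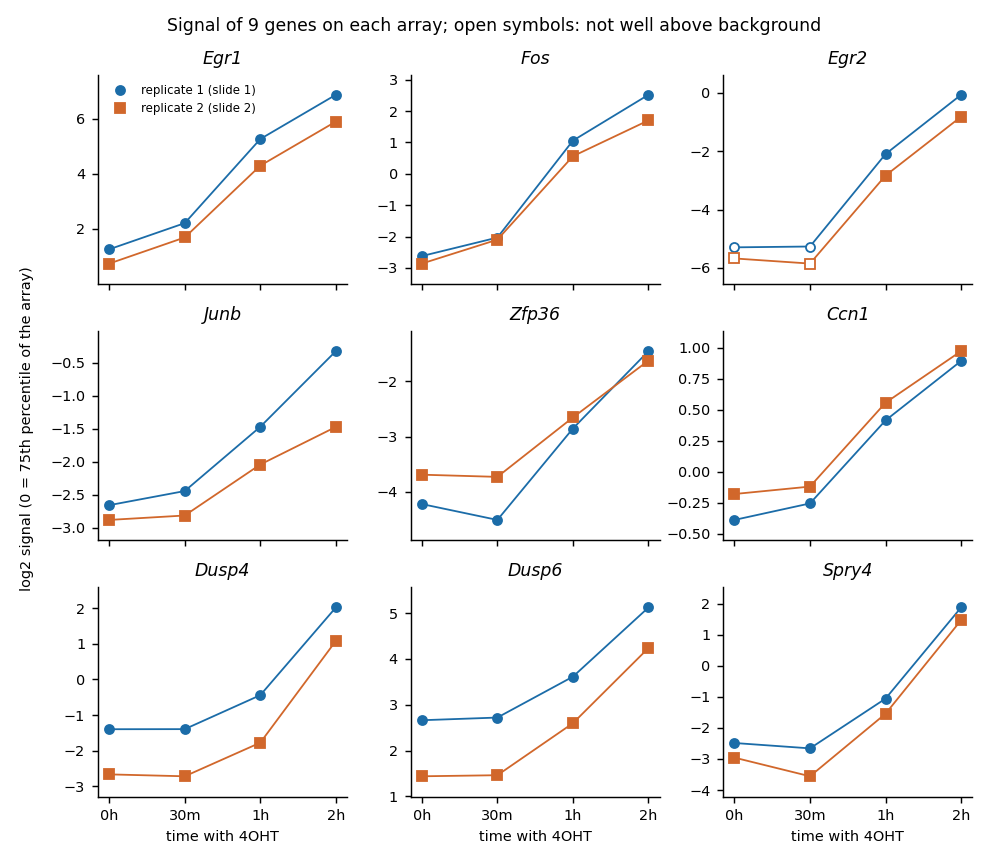
Level of 9 genes on each array (y axis, log2 signal relative to the 75th percentile of the array) against time with 4OHT (x axis) for replicate 1 (circles) and replicate 2 (squares); open symbols mark probes not well above background. Egr1 and Fos are higher at 30m than at 0h on both slides, Egr2 is at background until 30m, and Dusp4, Dusp6 and Spry4 are higher at 1h and at 2h than at 30m on both slides.

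Promoters of 3 of the early genes are shown, Egr2 and Zfp36 for a CArG box and Fos for the TATA element TATAAA. Of 15 early genes looked up in the RefSeq promoter table (GRCm38.p6, 250 bases before to 50 after each start), 9 had an entry. Egr1 and Spry4 are named only. A CArG box on either strand was found for 2 of the 9, Egr2 and Zfp36, against 1.81% of all genes in the table, and TATAAA for 3, Fos, Junb and Ccn1, against 15.7% of all genes. The ETS motif CCGGAAGT, on either strand, was found for none of the 9 and for 4.31% of all genes. Such matches are letters in a window and not shown to be bound. The 150 bases before the start are printed below 5′ to 3′ with the CArG box (Egr2, Zfp36) or TATAAA (Fos) in capitals.
Egr2, chr10:67537719-67537868, plus strand: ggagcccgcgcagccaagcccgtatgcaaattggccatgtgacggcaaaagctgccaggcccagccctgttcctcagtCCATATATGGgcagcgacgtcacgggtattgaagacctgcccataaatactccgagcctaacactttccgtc
Zfp36, chr7:28379229-28379378, minus strand: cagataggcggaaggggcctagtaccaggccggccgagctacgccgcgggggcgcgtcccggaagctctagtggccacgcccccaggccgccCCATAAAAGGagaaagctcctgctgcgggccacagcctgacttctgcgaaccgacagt
Fos, chr12:85473740-85473889, plus strand: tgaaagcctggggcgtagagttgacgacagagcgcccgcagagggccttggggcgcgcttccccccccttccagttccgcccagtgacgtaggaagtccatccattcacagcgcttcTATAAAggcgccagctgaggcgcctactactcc
The CArG box starts 72 bases before the start in the Egr2 window shown, 1 of 4 with such a box among the 5 annotated for Egr2, and 58 bases before it in Zfp36. The Egr2 windows overlapping the one shown hold the same box, CCATATATGG, and the remaining window with a box holds another, CCTTTTTTGG. TATAAA starts 33 bases before the start of Fos and 25 bases before that of Ccn1, while in Junb it begins at the annotated start itself. The Fos window holds no CArG box within these bases.

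Among 14 Egr and AP-1 genes tested, the 3 named above were called at 1h and none at 30m, and the median change was 0.01 at 30m and 0.29 at 1h, beside -0.02 and -0.00 over all tested genes. Junb, another AP-1 subunit, was -1.47 and -2.04 at 1h and -2.66 and -2.88 at 0h, a difference of 1.01 ± 0.27 with no overlap (limma adjusted p = 0.81). Jun was 2.04 and 2.14 at 1h against 1.85 and 1.83 at 0h, a difference of 0.25 ± 0.29 (limma adjusted p = 1.00). Jun, the best known partner of Fos, was called only later, 2.46 ± 0.29 higher at 2h than at 1h (limma adjusted p = 0.026). The other members gave no call: Fosb differed by 0.34 ± 0.45 between 1h and 0h, and Egr3 by 0.06 ± 0.45 with 3 of its 4 arrays at 1h and 0h above background. Egr3 read -5.07 and -4.15 at 1h and -4.41 and -4.92 at 0h, which overlap.

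Other immediate early transcription factors and SRF partners showed 2 of 23 tested genes at least 0.5 higher on both slides at 1h (Myc and Id3) and none at 30m, with list medians of -0.02 at 30m and 0.06 at 1h. Over all tested genes these shares were 0.824% at 1h and 0.275% at 30m, with medians of -0.02 at 30m and -0.00 at 1h. Myc, a growth regulator, was 1.12 and 0.11 at 1h and 0.51 and -0.90 at 0h. The groups overlapped, with 1h replicate 2 below 0h replicate 1, while within the slides 1h was higher by 0.61 and 1.01. The fitted difference was 0.81 ± 0.27 (limma adjusted p = 0.91). Id3, an inhibitor of basic helix-loop-helix factors that was picked out after its values were seen, read 3.23 and 2.57 at 1h and 1.90 and 1.33 at 0h, a difference of 1.29 ± 0.43. Srf itself was 1.97 and 1.87 at 1h and 1.83 and 1.88 at 0h, a difference of 0.06 ± 0.13.

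Of 28 tested immediate early genes for mRNA decay, matricellular proteins and signalling, 3 were at least 0.5 higher on both slides at 1h (Zfp36, Ccn1 and Arc), none lower, and none passed the test, with list medians of -0.01 at 30m and 0.14 at 1h. By the same count at 1h, 0.824% of all tested genes were higher and 0.607% lower, with a median of -0.00. Zfp36 encodes tristetraprolin, which binds AU-rich elements and speeds the decay of short-lived mRNAs. Zfp36 was -4.22 and -3.69 at 0h, -4.51 and -3.73 at 30m, and -2.85 and -2.65 at 1h. Both 1h arrays were above all 4 earlier arrays, which did not separate from each other, and the 1h minus 0h difference was 1.20 ± 0.31 (limma adjusted p = 0.81). Ccn1, the matricellular protein Cyr61, was 0.41 and 0.56 at 1h and -0.39 and -0.18 at 0h, 0.77 ± 0.16 higher without overlap (limma adjusted p = 0.72). Arc, known from neurons as an activity-regulated gene, was 3.29 and 2.65 at 1h and 2.71 and 2.07 at 0h, so that the groups overlapped, and differed by 0.58 ± 0.32 (limma adjusted p = 0.97). Gem, a small GTPase of the RGK family, and Ier2 each differed by 0.65 with SE of 0.16 and 0.18. For Gem slide 2 carried most of it, 1.00 against 0.31 on slide 1. Ier2 was 2.12 and 1.27 at 1h and 1.11 and 0.98 at 0h, and slide 1 carried most of it, 1.01 against 0.29 on slide 2.

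Of 20 feedback genes and ETS factors commonly used as readouts of ERK activity, 0 passed the test in either direction at 30m or 1h. Dusp4, Dusp6 and Spry4 were at least 0.5 higher on both slides at 1h, and the list median was -0.05 at 30m and 0.25 at 1h. Among all tested genes 0.0192% were called at 1h and 0.824% were higher by that count, and the medians were -0.02 at 30m and -0.00 at 1h. Spry4, a Sprouty inhibitor of receptor tyrosine kinase signalling, was -2.49 and -2.96 at 0h, -2.66 and -3.56 at 30m, -1.06 and -1.55 at 1h, and 1.87 and 1.46 at 2h. Each 30m array lay below the 0h array of its own slide, and both 1h arrays lay above all 4. The 1h minus 0h difference was 1.42 ± 0.36, with 1.43 and 1.41 on the slides (limma adjusted p = 0.81). Both DMSO arrays, at 0.27 and 1.07, were above the 1h arrays and below the 2h arrays.

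Dusp6, the cytoplasmic phosphatase for ERK, was 2.66 and 1.44 at 0h, 2.72 and 1.46 at 30m, 3.61 and 2.60 at 1h, and 5.12 and 4.24 at 2h. At every time slide 1 was higher, by about as much as 1h exceeded 0h, so 1h replicate 2 fell just below 0h replicate 1. Within the slides 1h was higher by 0.95 and 1.16, and the fitted difference was 1.05 ± 0.24 (limma adjusted p = 0.81). DMSO arrays read 3.99 and 3.85, above both 1h arrays. Dusp4, a nuclear phosphatase of the same family, was -0.44 and -1.77 at 1h and -1.40 and -2.66 at 0h, 0.92 ± 0.20 higher with overlap across slides (limma adjusted p = 0.72).

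Spry2 differed by 0.54 ± 0.15 between 1h and 0h and Dusp1 by 0.36 ± 0.22, while Etv4 and Etv5, ETS factors downstream of FGF signalling, differed by 0.27 ± 0.28 and 0.12 ± 0.12. For Etv4 the 1h arrays, at 2.53 and 1.61, overlapped the 0h arrays, at 2.56 and 1.04, and the DMSO arrays stood at 4.93 and 4.68. A second Etv4 probe, well above background on all 6 arrays, was 0.48 higher at 1h than at 0h. Dusp2, a nuclear phosphatase, was -2.35 and -2.34 at 1h and -2.55 and -2.78 at 0h, a difference of 0.32 ± 0.27. Phlda1, a pleckstrin homology domain protein, was -0.12 and -0.84 at 1h and -0.62 and -1.17 at 0h, a difference of 0.42 ± 0.32. None of these 6 was called at 1h.

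**Figure D3:**
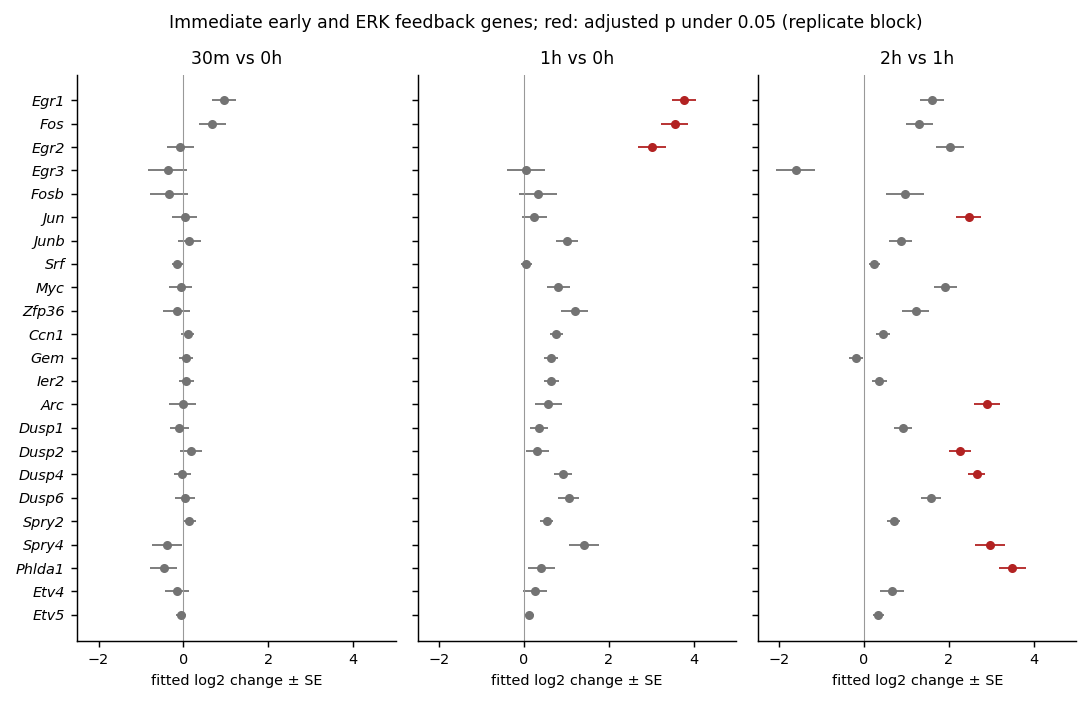
Fitted log2 change ± SE (x axis) of 23 immediate early and feedback genes for 30m against 0h, 1h against 0h and 2h against 1h; red points have an adjusted p under 0.05 in the limma fit with the replicate block. Egr1, Fos and Egr2 are red at 1h, and Jun, Arc, Dusp2, Dusp4, Spry4 and Phlda1 at 2h against 1h.

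The step from 1h to 2h, given to place the end of the hour, had 12 genes called higher (0.0766%) and 1 lower (0.00639%) by limma, and none without the replicate block, with 402 genes then at an unadjusted p under 0.05. By the count over both slides 207 genes (1.32%) were higher and 143 (0.913%) lower at 2h. List members were chosen with earlier results of these data known, so a count of called members is a description. The called genes include 4 of the 20 feedback genes: Phlda1 was 3.49 ± 0.32 higher at 2h than at 1h, Spry4 2.97 ± 0.36, Dusp4 2.65 ± 0.20 and Dusp2 2.26 ± 0.27 (limma adjusted p of 0.0062, 0.026, 0.0021 and 0.026). Of these 4, the Dusp4 call alone held without 1h replicate 1 (3 genes called in all) and without 1h replicate 2 (4 genes called), and the calls of Jun, Arc, Ptger2 and Ptgs2 were also lost under both, while Lor was called under both. Lor, which encodes the keratinocyte protein loricrin, had the largest difference of the 13: it was 2.95 and 1.57 at 2h against -1.80 and -2.49 at 1h, a difference of 4.41 ± 0.25 (limma adjusted p = 0.00034). At 0h Lor was -1.67 and -2.58, overlapping the 1h arrays. Ptgs2, an enzyme of prostaglandin synthesis, was at background through 1h and at least 9.31-fold higher at 2h. Ptgs2, and Nsun3 among the other called genes, entered the test on the strength of 2h or later groups, where they are high. Their calls are therefore given as a description. None of the 3 genes called at 1h was called again: Egr1 was 1.60 ± 0.28 higher at 2h than at 1h, Egr2 2.03 ± 0.32 and Fos 1.30 ± 0.32 (limma adjusted p of 0.12, 0.088 and 0.33).

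Secreted and delayed early targets gave no call among 16 tested genes in the first hour, and medians of -0.02 at 30m and 0.23 at 1h. Ptger2, a prostaglandin E2 receptor, was -4.08 and -4.18 at 1h and -4.65 and -5.14 at 0h, 0.76 ± 0.23 higher without overlap (limma adjusted p = 0.88), and only 1 of the 0h arrays was well above background. It was then called, 1.68 ± 0.23 higher at 2h than at 1h (limma adjusted p = 0.044). The growth factor gene Areg, the other member past 0.5 on both slides, was not well above background on any of the 6 arrays. Of all tested genes 0.0192% were called and 0.824% were at least 0.5 higher on both slides at 1h.

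Genes of the cascade itself gave no call, and for 17 tested RAF, MEK and ERK genes the fitted changes at 1h lay between -0.20 (Map2k1) and 0.26 (Ksr1), with a median of 0.05. The fusion is switched on by ligand, and whether an Esr1 (oestrogen receptor) probe reads the fusion transcript is not shown by the files. The 3 Esr1 probes disagreed, with 2 at background on all 6 arrays and the brightest 1.30 ± 0.34 higher at 1h than at 0h (limma adjusted p = 0.81). Oestrogen receptor target genes, listed because 4OHT binds that receptor, gave 0 calls among 11 and medians of 0.05 at 30m and -0.10 at 1h. Over all tested genes 0.0192% were called at 1h, so 0 calls among 11 or 17 genes are close to that share. No group received 4OHT without the fusion being switched on by it, so effects of the ligand and of the kinase cannot be told apart.

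The naive pluripotency list had 0 of 21 tested genes called, 0 past 0.5 on both slides, and medians of -0.03 at 30m and 0.04 at 1h. Over all tested genes at 1h, 0.0192% were called, and 0.824% were higher and 0.607% lower on both slides. Counts of 0 in lists this small are close to those shares. Nanog was 4.50 and 4.61 at 0h, 4.70 and 4.53 at 30m, and 4.48 and 4.51 at 1h, and the 1h and 0h arrays overlapped. Klf4 also overlapped, with 4.56 on the lower 1h array and 5.06 and 4.38 at 0h. The fitted differences, -0.06 ± 0.75 and 0.06 ± 0.60, have wide errors because the spread is shared with all 16 arrays. A second Nanog probe, well above background on all 6 arrays, was 0.29 higher at 30m and 0.36 higher at 1h than at 0h. Core pluripotency genes (0 of 10 called) had medians of 0.02 at 30m and 0.10 at 1h. Sox2 differed by 0.01 ± 0.12 between 1h and 0h. Pou5f1, at 6.67 and 5.58 at 1h against 5.68 and 5.68 at 0h, differed by 0.99 on slide 1 and by -0.10 on slide 2.

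**Figure D4:**
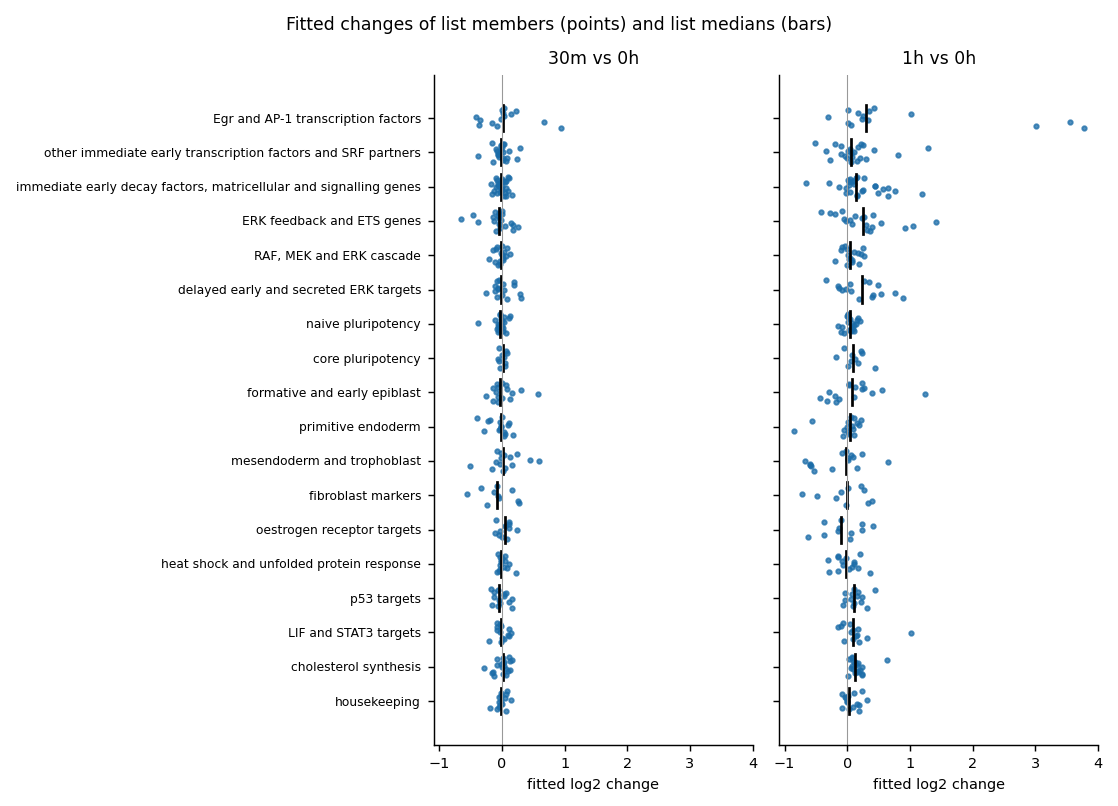
Fitted log2 change (x axis) of the tested members of 18 gene lists (rows) for 30m against 0h and 1h against 0h; points are genes and black bars list medians. The Egr and AP-1 list has the points farthest to the right, up to 3.78 at 1h, and the medians of all lists lie between -0.10 and 0.29 there.

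Lineage genes gave no call, where 0.0192% of all tested genes were called at 1h. Among 16 formative and early epiblast genes the median was 0.07 at 1h, and the DNA methyltransferase gene Dnmt3a was -1.88 and -1.93 at 1h and -1.35 and -1.60 at 0h, a difference of -0.43 ± 0.13 without overlap (limma adjusted p = 0.88). Primitive endoderm genes (16 tested) had a median of 0.05 and mesendoderm and trophoblast genes (15 tested) of -0.02. Pdgfra, -0.86 ± 0.24 at 1h against 0h, was not well above background on any of the 6 arrays, nor were Mesp1 and Cdx2, the 2 members of the last list at least 0.5 lower on both slides. Of all tested genes 0.607% were lower by that count at 1h. The homeobox gene Evx1, which is known from the primitive streak and was picked out after its values were seen, was -1.99 and -2.36 at 1h and -2.55 and -3.08 at 0h, a difference of 0.64 ± 0.27 with no overlap.

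Lists of other responses and cell types were also without calls, beside 0.0192% of all tested genes called at 1h. At 1h the median change was -0.02 for 15 heat shock and unfolded protein response genes, 0.10 for 14 p53 targets, 0.09 for 14 LIF and STAT3 targets, 0.12 for 20 cholesterol synthesis genes and -0.01 for 10 fibroblast markers. All 20 cholesterol genes had fitted changes above 0 at 1h, up to 0.63 (Insig1, which holds the SREBP pathway back in the endoplasmic reticulum), where 49.1% of all tested genes did. Their median was 0.18 on slide 1 and 0.11 on slide 2. Some other lists also lay above the share over all genes, such as naive pluripotency (16 of 21) and p53 targets (11 of 14). Others lay below it, such as the heat shock and unfolded protein response list (7 of 15). Housekeeping genes (15 tested) had a median of 0.03, and Gapdh was 9.12 and 8.94 at 1h and 8.98 and 9.02 at 0h.

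Over all tested genes, those with the highest moderated t at 1h that were past 0.5 on both slides were Egr1, Fos and Egr2, then Saa4, Spem2, 6820408C15Rik, Cirbp and Rhox4e, which are on no list. Cirbp, a cold-inducible RNA-binding protein, was the brightest of the last 5, at most 3.35 at 0h, 3.37 and 3.05 at 30m, and 4.18 and 3.83 at 1h. Its 1h arrays were above the other 4, and the 1h minus 0h difference was 0.83 on each slide, ± 0.14 (limma adjusted p = 0.34). The other 4 were dim. Saa4, a serum amyloid A gene, was -4.05 and -3.81 at 1h and -4.80 and -5.10 at 0h, 1.02 ± 0.14 higher (limma adjusted p = 0.17), and at 30m it was 0.64 ± 0.14 higher than at 0h. Spem2, with both 0h arrays at background, was at least 2.19-fold higher at 1h. It passed the filter on dim probes through 1h or later groups, where it is high, so this bound is a description.

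In the other direction Fkbp14, a peptidyl-prolyl isomerase of the endoplasmic reticulum, was -1.37 and -0.86 at 1h and -0.64 and -0.31 at 0h, a difference of -0.64 ± 0.10 with no overlap (limma adjusted p = 0.33). A second Fkbp14 probe was at background on all 6 arrays. Irf8, an interferon regulatory factor, was -3.36 and -3.76 at 1h and -2.61 and -3.02 at 0h, a difference of -0.74 on both slides, ± 0.15 (limma adjusted p = 0.72). Tmem74b differed by -0.92 ± 0.16 between 1h and 0h (limma adjusted p = 0.34). Dock9, a guanine nucleotide exchange factor, and the chemokine receptor gene Ccr4 were at background at 1h, at least 1.86-fold and at least 1.05-fold below 0h. Up to 2h, Ccr4 passed the filter on dim probes through the 0h group alone, where it is high, so its bound is a description.

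At 30m most of the genes ranked the same way were dim. Pyy, the gut hormone peptide YY, was -3.38 and -2.52 at 0h, -1.74 and -1.20 at 30m, and -3.21 and -2.21 at 1h, highest at 30m on both slides. It was 1.48 ± 0.32 above 0h at 30m (limma adjusted p = 1.00), and 0.24 ± 0.32 above it at 1h. Adam7 was at least 2.47-fold and Asb16 3.72-fold higher at 30m, Asb16 with 0.79 on slide 2 and far more on slide 1, and Maml2, Nkpd1, Saa4 and Spem2 were the remaining genes besides Egr1. On the lower side Gal3st1 was -6.77 and -4.61 at 30m and -3.79 and -3.77 at 0h, and Hpse, Irgm2, Sqor and Il13ra2 were at background at 30m, at least 1.84-fold, 1.66-fold, 1.13-fold and 1.17-fold below 0h. A second Hpse probe, well above background on 1 of the 6 arrays, differed by 2.11 the other way. Up to 2h, Il13ra2 passed the filter on dim probes through the 0h group alone, where it is high, so its bound is a description. At 30m 362 genes differed from 0h by at least 1 (log2) on slide 1 and 100 on slide 2. At 1h these counts were 298 and 181.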

How the data were processed

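RNA was hybridised to Agilent 1-colour mouse arrays read in the green channel (per the file headers, Feature Extraction 11.0.1.1, while the labels name Cy5). The deposited intensity is Agilent's processed signal, background-subtracted per the file headers. The authors' value table was used to name the arrays: its columns matched 1 scanner file at 100% of spots (tolerance 0.6%, next best at most 4.99%), and for 8 of 16 arrays this was not the file attached to that sample. Log2 signals were set relative to the 75th percentile of each array. Matched by accession to RefSeq transcripts, 27656 of 55681 probes had 1 gene and 28025 none, giving 20972 genes with the brightest probe each. Genes with a group well above background on both arrays were tested (15660).

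limma 3.58.1 in R 4.3.3 fitted 8 group means and the replicate number to 16 arrays (7 residual degrees of freedom), with Benjamini-Hochberg adjustment, and was tested on simulated data. Deviations from group means of same-numbered arrays correlated at 0.328 to 0.659 in all 28 pairs of groups. Replicate number and slide coincide, so these correlations cannot tell an effect of the slide from a pairing of the cultures. With equal spacing, the linear trend over 0h, 30m and 1h has the same test as 1h against 0h. The F test over the 3 times called the same 3 genes.

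Named genes were a fixed set, the called genes, the 8 highest and 5 lowest moderated t among genes past 0.5 on both slides at 30m and at 1h, and list members with an unadjusted p under 0.01 at 1h. Members and gene lists were chosen with earlier results of these data known. "At least" folds set the dim group at the lowest signal well above background on its arrays, or the probe's own where higher. Alternatives are in the closing section. Array number limits precision. The scanner files hold median rather than mean signals, so normexp used the median. Some items are not reported here.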

Additional observations from a re-analysis of the deposited data

Results flagged for a closer look

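Among 28025 probes with no gene name, 14510 passed the filter on dim probes and were tested apart from the named genes. A single probe, for transcript ENSMUST00000111898, was called lower, and it lies outside the comparisons above. It read -4.40 and -4.61 at 0h, -6.74 and -6.91 at 30m, and -6.97 and -6.84 at 1h, and of these 6 the 0h arrays alone were well above background. The probe thus passed the filter through the 0h group, where it is high, so it had to differ, and its adjusted p is given as a description. The fitted change was -2.32 for 30m against 0h and -2.40 for 1h against 0h, each ± 0.14 (limma adjusted p = 0.00036 and 0.00026, and 0.0063 and 0.0045 without the replicate block). As a bound this is at least 1.30-fold and at least 1.23-fold lower. The other 14 arrays of the series, DMSO included, read at most -6.66.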

How the results depend on the processing

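The counts of called genes depended on the replicate block. With no replicate block limma called 0 genes for 1h against 0h, 0 for 1h against 30m, 0 for 2h against 1h and 0 in the F test over the 3 times. With only the arrays compared in the fit, 1h against 30m and the F test gave 0, and 2h against 1h gave 24. Without a filter on dim probes 1h against 30m gave 0 and 2h against 1h gave 6. Normexp on median signals with quantile normalization gave 26 genes for 2h against 1h, and intensity trend with robust spread gave 25. With array identities as attached to the scanner files, and no block, the counts were 7 for 30m against 0h, 0 for 1h against 0h, 8 for 1h against 30m, 416 for 2h against 1h and 7 in the F test. Leaving out 1 array at a time gave 0 to 63 genes for 30m against 0h (15 without 0h replicate 2, 63 without 30m replicate 2), 0 to 23 for 1h against 0h, 0 to 65 for 1h against 30m (65 without 30m replicate 2), 3 to 30 for 2h against 1h (3 without 1h replicate 1, 4 without 1h replicate 2, 30 without 2h replicate 2) and 0 to 46 in the F test (1 without 30m replicate 1, 14 without 0h replicate 2, 46 without 30m replicate 2). A fit that leaves 1 array in a group takes that array to vary like the others. No called value changed sign. Of the named gene values under the alternatives, 2028 kept call and size, 284 moved, 39 lost and 4 gained a call, and of list medians 671 kept and 85 moved. The cause of these changes was not tested. With 2 arrays a group the median SE of a change was 0.153 (log2), and on dim probes changes are bounds.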

Other observations

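The unnamed probe for AK015406 gave -5.93 and -5.97 at 0h, -5.26 and -5.43 at 30m, and -4.23 and -3.97 at 1h, with only the 1h arrays of these 6 well above background. It was at least 2.35-fold higher at 1h than at 0h and was not called (limma adjusted p = 0.096, and 0.077 without the replicate block). The probe was picked out after its values were seen. It passed the filter on dim probes through 1h and later groups, where it is high, so its adjusted p is given as a description.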
